A study of Mus musculus with 40 samples.

Results

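The expression of genes in hematopoietic progenitor cells that carry Flt3-ITD together with NHD13 was compared with that in wild-type progenitor cells, both from mice at P14. The libraries were chosen by their genotype and age labels alone: 4 libraries labelled FLT3-ITD/NUP98-HOXD13 and 4 labelled wild type, 8 of the 36 libraries with a column of counts and of the 40 samples in the labels. Flt3-ITD is an internal tandem duplication in the receptor Flt3, and NHD13 is the fusion of the nuclear pore gene NUP98 with the homeobox gene HOXD13; both groups of 4 came from the same cell source and no treatment is named for either. Also used were 4 libraries with Flt3-ITD alone and 4 with NHD13 alone at P14, and 4 libraries of the double genotype and 4 of the wild type at P0, the day of birth. The fits also held 4 Runx1 heterozygous libraries and 4 with Flt3-ITD and Runx1 heterozygous at P14, and 4 with Flt3-ITD alone at P0. These were not compared and enter only the shared estimate of the spread, the scaling and the filter. RNA from these cells, called hematopoietic or multipotent progenitors in the labels, was amplified with a SMART method and sequenced. The strain, the number of copies of each allele, the promoter that drives NHD13 and the markers used to isolate the cells are not given in the sources used here. Nor do the labels say that the 4 libraries of a group came from separate animals, so p-values measure the spread between these libraries.

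FLT3 is a receptor tyrosine kinase of early hematopoietic progenitors, and the internal tandem duplication makes it signal without its ligand, with STAT5 and the RAS-MAPK pathway among the routes downstream. Fusions of NUP98 with homeobox genes keep HOX genes of the body-axis clusters active in blood progenitors; HOX proteins bind DNA together with PBX and MEIS partners. Type I interferons act through a receptor and the kinases JAK1 and TYK2 on transcription factors such as STAT2 and IRF9, which bind repeated GAAA letters near the start of antiviral genes.

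Assigned counts per library ranged from 16621596 to 26304963 in the double mutants, from 13749184 to 22638524 in the wild type, from 16923283 to 27289085 with Flt3-ITD alone and from 18114918 to 26260629 with NHD13 alone. At P0 they ranged from 17309401 to 30946321 in the double mutants and from 23621933 to 38844469 in the wild type. No pair of libraries within these 6 groups looked like a copy: the chi-square between libraries of a group was at least 10.93 times its degrees of freedom. Library 1 stood furthest from its group in the P14 double mutants and in the P14 wild type. Transcripts of Y-linked genes outweighed Xist in 3 of the 4 double-mutant libraries and in 1 of the 4 wild-type libraries. With a term for that difference 2826 genes were called, against 3225 without it. The samples are bulk RNA, so fewer cells of a type and less RNA per cell cannot be told apart in any result here.

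The genes that the alleles alter were read first. Flt3, at chr5:147330741-147400489 on the minus strand of GRCm38, had 616, 634, 693 and 658 CPM (counts scaled to library size with TMM factors) in the double mutants. It had 1510, 1360, 1430 and 1190 CPM in the wild type. Every double-mutant library was lower (log2 fold change -1.08 ± 0.09 SE, adjusted p = 1.86e-10). Adjusted p-values here and below come from edgeR's quasi-likelihood test with Benjamini-Hochberg adjustment over all genes tested, and a gene was called where the value was under 0.05. With Flt3-ITD alone Flt3 averaged 733 CPM and with NHD13 alone 1018 CPM. The counts cannot tell the duplicated allele from the normal one. Hoxd13, at chr2:74668310-74671599 on the plus strand, had 3.52, 2.54, 2.12 and 2.09 CPM in the double mutants and 0, 0, 0.0431 and 0 CPM in the wild type, 216 counts against 1 in all. That is a ratio of 191 (exact 95% interval 33.9 to 7580, counting error only). All 4 Flt3-ITD libraries were at 0 counts, and the NHD13 libraries had 3.6, 3.8, 3.99 and 4.21 CPM, so the labels for NHD13 match the counts. Nup98 had 45.8, 39.5, 49.3 and 45 CPM against 33.1, 41.2, 31.3 and 30.6 CPM, and the groups overlapped (0.40 ± 0.11, adjusted p = 0.0111). Reads of the fusion transcript cannot be told apart from reads of the mouse genes in these counts.

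The cells in both groups had the transcripts of early progenitors. Of 15 genes used to recognise them, all 15 passed the filter on low counts. Cd34, a surface sialomucin of progenitors, had 1120, 971, 1030 and 1040 CPM in the double mutants and 2420, 2270, 2140 and 1930 CPM in the wild type, with no overlap (-1.08 ± 0.08, adjusted p = 9.05e-11). The receptor gene Kit had 854, 708, 796 and 754 CPM against 1170, 1050, 1040 and 740 CPM, a small drop with overlapping groups (-0.36 ± 0.12, adjusted p = 0.0316). Its call was lost in 6 of the 8 fits that leave out 1 library of these groups, with an adjusted p of up to 0.124 without wild-type library 1. In all, 3 of the 15 were higher and 6 lower, where 10.2% and 12.2% of all genes tested were. The 3 higher were Gata2 (0.69, adjusted p = 8.21e-05), Cd48 (0.39) and Myb (0.36). The Cd48 call was lost in 5 of the 8 fits without 1 library (adjusted p up to 0.2061, without double-mutant library 1). That of Myb was lost in 6 (adjusted p up to 0.1135, without wild-type library 1). Markers of other cell types were present in part. Of 7 hepatocyte markers 3 passed the filter, and the list summed to 20.9 to 24.6 CPM in the double mutants and 21.1 to 28.7 CPM in the wild type, mostly from Afp and Trf, while Alb, Ttr and Serpina1a had 0 counts. Of 10 markers of T and NK cells 6 passed, with sums of 86.6 to 110 CPM and 238 to 321 CPM, mostly from Nkg7 and Cd4, while Cd8a had 0 counts and Cd3e had 1 in each group.

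Of 14394 genes tested at P14, 1468 (10.2%) were higher in the double mutants and 1757 (12.2%) were lower, together 22.4%. The median log2 fold change of all tested genes was 0.00425. Among those higher, 519 differed by over 2-fold, 261 by over 4-fold and 136 by over 8-fold, and in 1113 of them every double-mutant library lay above every wild-type library. Among those lower, 702, 251 and 85 passed these folds, and in 1333 the groups did not overlap. The median size of a called change was 0.62 on the log2 scale for genes that were higher and 0.79 for genes that were lower. A test against a 1.5-fold change in place of no change left 420 genes higher and 555 lower.

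HOX genes rose from near silence in some clusters and from an active state in another. Of the 39 HOX genes of the 4 clusters, 13 had 0 counts in both groups and 18 passed the filter on low counts, several of them only through libraries that carry NHD13, so a count over these 18 describes them and no more. Of the 18, 13 were higher and none lower by edgeR (1 was lower at an unadjusted p under 0.05, none by DESeq2). By cluster, 2 of 6 HOX A genes, 4 of 5 HOX B genes, 5 of 5 HOX C genes and 2 of 2 HOX D genes were called. The background shares for this comparison are 10.2% higher and 12.2% lower.

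In the HOX A cluster on chromosome 6 the change was a rise from an active state. Hoxa7 had 135, 125, 131 and 150 CPM in the double mutants and 62.6, 65, 72.2 and 70.4 CPM in the wild type (1.0 ± 0.08, adjusted p = 3.4e-10). Hoxa9, the HOX gene best known from acute myeloid leukemia, had 123, 110, 126 and 101 CPM against 68, 66, 73.6 and 73.2 CPM (0.71 ± 0.10, adjusted p = 6.85e-06). All double-mutant libraries were above all wild-type libraries for both. Hoxa10 lay just beside them at 35.7, 35.5, 37.9 and 32.8 CPM against 28.8, 32.3, 30.1 and 27.2 CPM, also without overlap, but did not pass (0.26, adjusted p = 0.186). Per length of transcript (RPKM, CPM per kilobase), the summed HOX A level was 76.7 to 84.1 in the double mutants, 45.8 to 50.2 in the wild type, 35 to 44 with Flt3-ITD alone and 76.8 to 90.8 with NHD13 alone. The Hoxa3 gene model spans those of Hoxa4, Hoxa5 and Hoxa6, so the split of reads among these is uncertain.

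In the HOX C cluster on chromosome 15 the wild type was close to silent. Hoxc8 had 15.2, 19.1, 19 and 18.9 CPM in the double mutants and 0 counts in all 4 wild-type libraries, 1591 counts against 0, which makes it at least 469-fold higher against a floor of 3 counts over the group. Hoxc5 had 34.7, 34.5, 39.4 and 45.1 CPM against 0, 0.358, 0 and 0 CPM (8.63 ± 0.38), and Hoxc6 had 14.5, 15.3, 16.2 and 18.3 CPM against 0, 0, 0 and 0.279 CPM (8.09 ± 0.42). The wild-type counts of each came from a single library, so without wild-type library 2 the fitted value of Hoxc5 was 12.60, and without library 4 that of Hoxc6 was 11.36. Neither gene overlapped between the groups. Hoxc4 had 1054 counts against 1, a ratio of 932 (exact 95% interval 167 to 36900), and Hoxc9 103 counts against 1, a ratio of 91.1 (16.0 to 3630). The gene model of Hoxc5, at chr15:102967443-103017429, spans those of Hoxc6, Hoxc8 and Hoxc9 and overlaps Hoxc10, so how reads divide among them is uncertain, and the sum over the cluster is given: 27 to 34.4 RPKM in the double mutants, 0 to 0.458 RPKM in the wild type, 0 to 0.116 RPKM with Flt3-ITD alone and 30 to 34.8 RPKM with NHD13 alone.

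The HOX B cluster on chromosome 11 rose from a low level. Hoxb5 had 3.64, 3.96, 4.9 and 3.46 CPM against 0.655, 0.307, 0.474 and 0.976 CPM (2.75 ± 0.45), Hoxb7 had 845 counts against 1, a ratio of 747 (exact 95% interval 134 to 29600), and Hoxb8 had 218 counts against 0, at least 64.3-fold higher. Hoxb4, which is known for expanding hematopoietic stem cells when overexpressed, did not pass (-0.78). On chromosome 2, Hoxd8 had 146 counts against 3, a ratio of 43.0 (14.4 to 211). Summed over the cluster, HOX B stood at 8.72 to 11.4 RPKM against 0.980 to 1.57 RPKM, and HOX D, which includes Hoxd13, at 1.48 to 1.89 RPKM against 0 to 0.0644 RPKM. In the order of their mean levels per length, Hoxa7 led in the double mutants at 46.9 RPKM, ahead of Hoxa9 at 20.6, Hoxc5 at 12.4 and Hoxa10 at 10.9 RPKM.

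**Figure D1:**
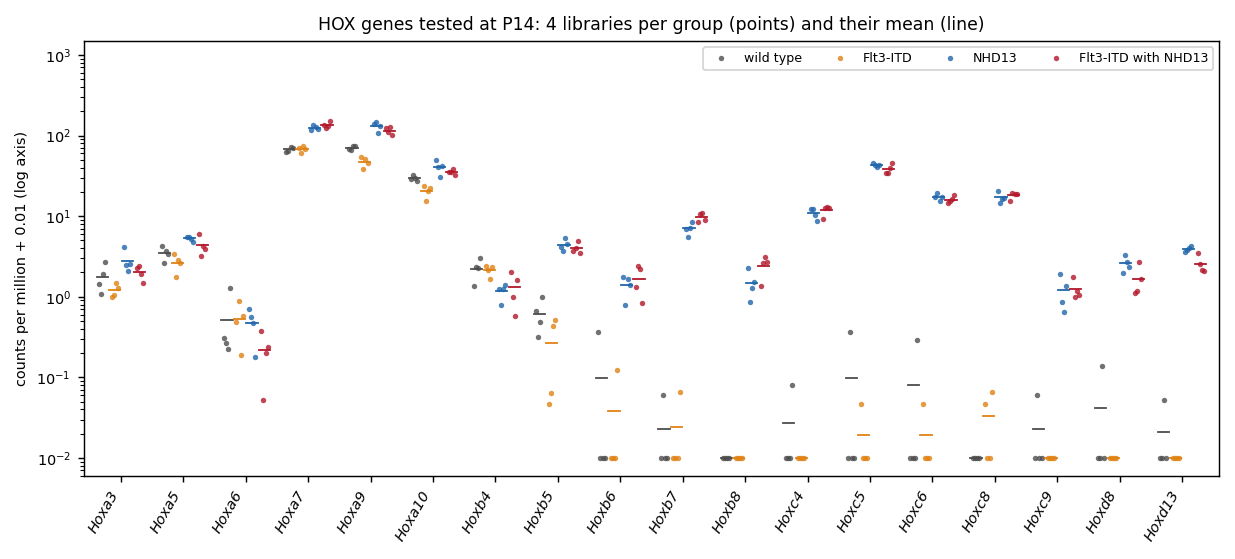
HOX genes in single libraries at P14. Each point is a library, in CPM plus 0.01 on a log axis, for the 18 HOX genes that passed the filter in wild type, Flt3-ITD, NHD13 and the double mutant, and each line is a group mean. The double-mutant points sit with the NHD13 points, and for HOX C genes the wild-type and Flt3-ITD points lie at or near the bottom of the axis.

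Among 7 tested PBX, MEIS and PKNOX genes, which encode the DNA-binding partners of HOX proteins, 1 was higher and 2 were lower. The shares of all genes were 10.2% and 12.2%. Pbx3 had 67.2, 76.1, 79.3 and 82.5 CPM in the double mutants and 1.56, 3.53, 2.93 and 2.93 CPM in the wild type (4.80 ± 0.20, adjusted p = 1.01e-16). It averaged 1.81 CPM with Flt3-ITD alone and 89.6 CPM with NHD13 alone, so its levels followed the NHD13 label. Meis1 went the other way, with 311, 296, 324 and 335 CPM against 707, 589, 660 and 570 CPM (-1.0 ± 0.09, adjusted p = 1.17e-09). Both groups of Meis1 values were tight and far apart. Pknox1 was lower by a smaller amount (-0.50).

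Interferon-stimulated genes were raised broadly. Of 62 tested genes of the type I interferon system, 50 were higher and 4 lower, with a median log2 fold change of 1.25, against 10.2% and 12.2% of all genes and an all-gene median of 0.00425. The roles did not move together. No interferon gene was tested: Ifnb1 had 0 counts in the double mutants and 1 in the wild type, Ifnk had 6 and 2, and the other 5 had none in either group.

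Of the receptor and its kinases, none of 4 was higher by edgeR, at an unadjusted p under 0.05 or by DESeq2, and 2 were lower. Of all genes, 10.2% were higher and 12.2% lower. Jak1 had 287, 269, 276 and 252 CPM against 399, 391, 433 and 402 CPM (-0.58), with no overlap, and Ifnar2 fell by 0.26, a call lost in 6 of the 8 fits without 1 library (adjusted p up to 0.183, without wild-type library 4). Ifnar1 (-0.18) and Tyk2 (0.18) did not pass.

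Of the transcription factors, Irf7, which drives the amplified phase of the response, had 797, 951, 830 and 993 CPM in the double mutants and 201, 89.2, 85.4 and 150 CPM in the wild type (2.77 ± 0.41, adjusted p = 4.16e-05). Stat2 (0.41, adjusted p = 0.0353) was not called in 6 of the 8 fits without 1 library (adjusted p up to 0.140, without wild-type library 2), and Irf1 (-0.42) was not called without wild-type library 4 (adjusted p = 0.0570), while Irf9 (0.36) and Irf3 (-0.06) did not pass. Wild-type library 1 was the highest of its group in 45 of the 62 genes.

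All 38 antiviral effectors were higher, where 10.2% of all genes tested were, with a median log2 fold change of 1.58. The lists were chosen with earlier results of these data known, so this count describes the members and no more. In every one of the 38 the groups did not overlap, as in 1113 of all 1468 genes called higher. Their smallest change was that of Ifi35 (0.92 ± 0.13). Rsad2, which makes the antiviral nucleotide ddhCTP and lies at chr12:26442746-26456452, had 139, 171, 137 and 161 CPM against 49.6, 26.9, 19.1 and 41 CPM (2.16 ± 0.30). Ifit1, which binds foreign RNA 5′ ends, had 321, 303, 224 and 258 CPM against 81.9, 23.8, 32.3 and 42.4 CPM (2.62 ± 0.41). The higher wild-type library of each was still below the lowest double mutant. Ifit3, the partner of Ifit1, had 51.2, 47.1, 31.7 and 48.9 CPM against 14.3, 1.99, 4.61 and 5.37 CPM (2.76 ± 0.56, and 3.50 without wild-type library 1). Oas1g, of the family that makes the second messenger of RNase L, had 36.4, 42.8, 29.8 and 33.6 CPM against 8.56, 3.37, 2.33 and 4.32 CPM (2.94 ± 0.29). Ifi27l2a had 192, 194, 147 and 171 CPM against 41.9, 14.8, 15.8 and 26.1 CPM (2.84 ± 0.33), and Mx1, a GTPase against influenza viruses, had 21.5, 21.8, 19.8 and 20.2 CPM against 5.79, 1.74, 1.68 and 2.86 CPM (2.79 ± 0.54). Oas1a and Oas1g, Ifit3 and Ifit3b, and Phf11c and Phf11d are near-identical copies, so the split between the members of each pair is uncertain.

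Among 9 tested sensors of foreign nucleic acid, 6 were higher and 1 lower. For the counts in this paragraph, the shares of all genes are 10.2% higher and 12.2% lower. The count of sensors lower was near its share. Zbp1 had 44.3, 48.9, 39.4 and 47.8 CPM against 13.4, 5.37, 4.74 and 12.6 CPM (2.34 ± 0.35), and Ifih1 (1.21), Dhx58 (1.47), Ddx58 (0.90), Tlr3 (1.13) and Cgas (0.38) were also higher. Tmem173, which encodes the adaptor STING, was lower (-0.30), a call lost without wild-type library 4 (adjusted p = 0.0607). Tlr3 was not called without wild-type library 4 or double-mutant library 1 (adjusted p up to 0.0739). Of 5 genes that modify or damp the response, 3 were higher: the ubiquitin-like modifier Isg15 had 227, 235, 185 and 227 CPM against 59.3, 22.2, 25.5 and 43.2 CPM (2.54 ± 0.35), its protease Usp18 had 450, 386, 254 and 333 CPM against 121, 39.1, 31.8 and 60.5 CPM (2.50 ± 0.47), and its activating enzyme Uba7 rose by less (0.66). Summed over the list, interferon-system genes stood at 11600 to 13100 CPM in the double mutants, 4510 to 6810 CPM in the wild type, 5820 to 7910 CPM with Flt3-ITD alone and 7540 to 9690 CPM with NHD13 alone. Markers of macrophages and monocytes, summed the same way, stood at 46.0 to 65.1 CPM in the double mutants and 52.0 to 70.1 CPM in the wild type. Of the 7 tested, 1 was higher, Adgre1 (2.01), and 1 was lower. Siglech, of plasmacytoid dendritic cells, had 5 counts in the double mutants and 15 in the wild type. The summed dendritic cell markers were higher, at 274 to 324 CPM against 110 to 147 CPM. Most of that sum is Bst2, an interferon-stimulated gene itself, at 292, 290, 246 and 287 CPM against 116, 91.8, 81.1 and 122 CPM. Of the 5 tested, 2 were higher, Bst2 and Clec10a (1.41), and 2 were lower. The part of such cells in the result was not tested.

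Stretches of the promoters of 4 interferon-stimulated genes are shown as examples chosen because they hold a match to the letters searched, as 13 of the 31 raised effectors with an entry do. They come from RefSeq (GRCm38.p6) and are written 5′ to 3′ on the gene's strand, and capitals mark every match of the letters GAAANNGAAA, read on either strand, where the other strand reads as TTTC pairs. The last match lies 110 bases before the start site in Rsad2, 56 in Isg15, 75 in Ifit1 and 112 in Ifit3.
Rsad2 (chr12:26456538-26456597, minus strand): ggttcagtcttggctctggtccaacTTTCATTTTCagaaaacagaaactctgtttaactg
Isg15 (chr4:156200850-156200921, minus strand): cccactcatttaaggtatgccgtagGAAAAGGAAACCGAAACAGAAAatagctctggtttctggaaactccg
Ifit1 (chr19:34640760-34640838, plus strand): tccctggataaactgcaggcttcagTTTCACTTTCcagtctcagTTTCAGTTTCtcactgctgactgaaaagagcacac
Ifit3 (chr19:34583348-34583441, plus strand): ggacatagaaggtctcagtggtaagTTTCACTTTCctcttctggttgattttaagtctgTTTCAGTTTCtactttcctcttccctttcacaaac
Isg15 holds 3 overlapping matches in a row, Ifit1 and Ifit3 hold 2 each and Rsad2 holds 1. In the 250 bases before the start, 13 of the 31 antiviral effectors with an entry (41.9%) held a match in at least 1 window, among them Bst2, Ddx60, Oas1a, Oas1g, Oas3, Slfn5, Slfn8 and Trim30a. A share of 3.46% of all 27025 genes with an entry did. None of the 22 HOX genes with an entry did, but at that share 22 genes are too few to show a contrast. A match is a description of the letters in this window and not a binding site.

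Genes of antigen presentation were partly higher: of 30 tested, 18 were higher and 4 lower, with a median of 0.357. The shares of all genes were 10.2% and 12.2%, and the count lower was near its share. All 6 class I genes rose. B2m, the light chain of class I, had 6060, 6080, 5900 and 5470 CPM against 4140, 3160, 2810 and 3780 CPM (0.76 ± 0.10), and H2-K1 had 1470, 1520, 1370 and 1590 CPM against 878, 831, 803 and 1100 CPM (0.72 ± 0.10). H2-Q7 had 75.8, 77.8, 51.7 and 57.3 CPM against 8.61, 6.49, 4.35 and 8.02 CPM (3.27 ± 0.49), and the Q-region genes are near-identical, so their separate values are uncertain. In each the groups were apart. Of 10 genes for peptide loading and the immunoproteasome, 7 were higher, led by the class I regulator Nlrc5 at 57.9, 67.7, 61.3 and 67.4 CPM against 23, 15.8, 17.6 and 33.7 CPM (1.51 ± 0.21), with Tap1 at 0.83 and Psmb8 at 0.49. Of 8 GTPases of cell-autonomous defence, 5 rose, Iigp1 by most (2.07 ± 0.38), and Gbp8 fell (-1.48). Class II went the other way, with none of 6 higher by edgeR, at an unadjusted p under 0.05 or by DESeq2 and 3 lower: the class II regulator Ciita (-2.46), H2-Aa (-1.15) and H2-Ab1 (-0.53). Without wild-type library 4 H2-Aa (adjusted p = 0.103) and H2-Ab1 (adjusted p = 0.165) were not called, nor was H2-Ab1 without double-mutant library 1 or 2. The test against a 1.5-fold change left 6 of the 18 genes higher.

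**Figure D2:**
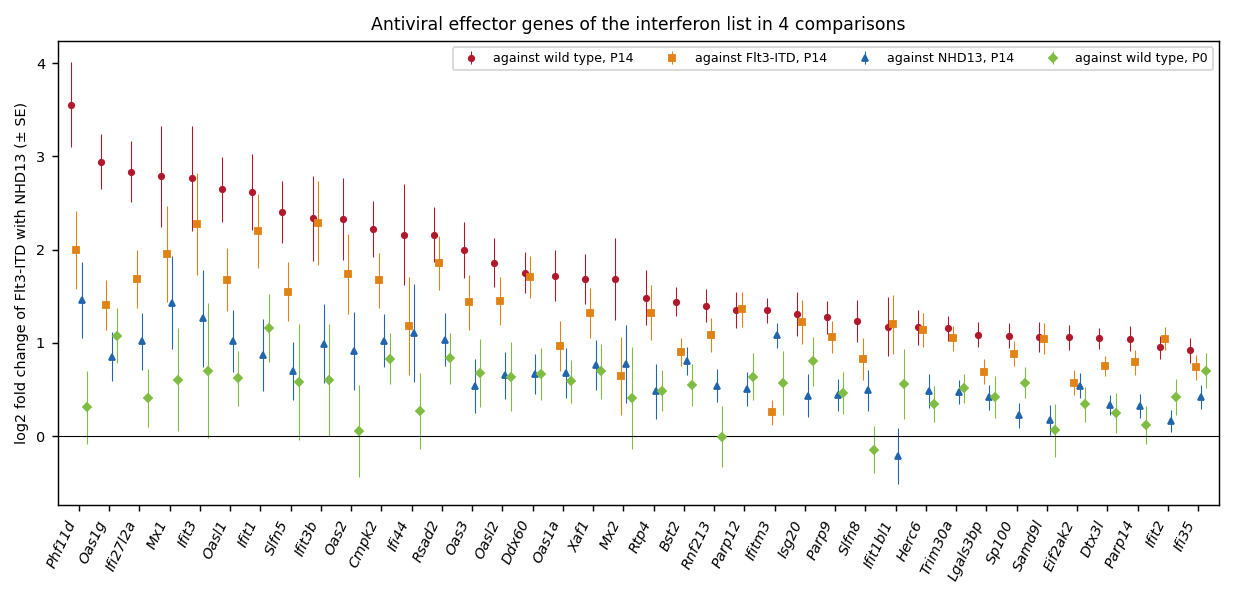
Antiviral effectors in 4 comparisons. Points are log2 fold changes with bars of 1 SE for the 38 genes, in the double mutant against wild type, Flt3-ITD and NHD13 at P14 and against wild type at P0. At P14 against wild type all 38 lie above 0, from 0.92 to 3.56; the P14 comparisons share the double-mutant libraries.

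STAT5 and MAPK are routes downstream of FLT3. Among 16 tested genes known as STAT5 targets, 5 were higher, 3 lower and 8 not called, with a median log2 fold change of 0.243. The shares of all genes were 10.2% higher and 12.2% lower. Socs2, which inhibits cytokine receptor signalling, had 146, 177, 214 and 194 CPM in the double mutants and 13.4, 9.1, 7.88 and 11.3 CPM in the wild type (4.14 ± 0.24, adjusted p = 3.69e-11). It averaged 215 CPM with Flt3-ITD alone and 4.45 CPM with NHD13 alone, so its levels followed the Flt3-ITD label. Cish, of the same family, had 55.4, 51.1, 60 and 65.3 CPM against 38, 22.5, 29.4 and 28.7 CPM (0.97), the kinase gene Pim1 had 243, 175, 214 and 183 CPM against 151, 141, 110 and 138 CPM (0.60 ± 0.14), and Bcl2l1 (0.64) and Id1 (1.43) were also higher. In Cish and Pim1 every double-mutant library was above every wild-type library. Bcl6, a repressor, was lower (-2.96 ± 0.39), as were Ccnd3 (-0.48) and Socs3 (-1.38), the latter not without wild-type library 4 (adjusted p = 0.242).

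Genes that report and restrain MAPK signalling were lower: 6 of 10 fell and none rose by edgeR, at an unadjusted p under 0.05 or by DESeq2, against 12.2% lower among all genes. Dusp6, the phosphatase that acts on ERK, had 83.5, 42.8, 44.8 and 44.5 CPM against 270, 210, 169 and 162 CPM (-1.92 ± 0.26). The ETS factor gene Etv5 had 5.5, 4.56, 6.03 and 5.01 CPM against 23, 40.4, 38.2 and 33 CPM (-2.68 ± 0.24). No double-mutant library reached the lowest wild-type value in either gene, although double-mutant library 1 was the highest of its group for Dusp6. The pathway inhibitors Spry2 (39, 25.7, 28.7 and 20.2 CPM against 104, 102, 83.7 and 67.4 CPM, -1.66 ± 0.25), Spry4 (-2.61, and -3.61 without double-mutant library 3), Spred1 (-0.79) and Spred2 (-0.83) fell as well, Spred2 not without wild-type library 2 (adjusted p = 0.0530). Summed over the list, these genes stood at 105 to 169 CPM in the double mutants, 334 to 443 CPM in the wild type, 125 to 138 CPM with Flt3-ITD alone and 379 to 589 CPM with NHD13 alone.

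Of 12 tested immediate early genes, 4 were lower and 1 was higher, where 12.2% and 10.2% of all genes were. Egr1, a factor induced within minutes of growth signals, had 1.48, 2.49, 0.847 and 1.33 CPM against 7.5, 12.3, 8.05 and 8.37 CPM (-2.55 ± 0.41). Ier3 (-1.30), Nr4a1 (-0.98) and Klf6 (-0.47) were lower and Jund (1.17) was higher. Egr1 averaged 1.0 CPM with Flt3-ITD alone and 14.8 CPM with NHD13 alone.

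Genes of stem cells split almost evenly, with 11 of 28 higher and 10 lower, where 10.2% and 12.2% of all genes were. Slamf1, which encodes the stem cell marker CD150, had 26.2, 36.7, 23.2 and 25.7 CPM against 7.6, 6.03, 6.68 and 7.39 CPM (2.01 ± 0.18), and the stress factor gene Nupr1 had 7.9, 9.51, 9.32 and 12.2 CPM against 0.655, 0.511, 0.689 and 1.46 CPM (3.60 ± 0.28). The genes of the platelet-primed state Vwf (1.55) and Itga2b (1.48) were higher too. Those that fell include surface receptors of stem cells and endothelium: Robo4 had 7.72, 12, 12.1 and 11.1 CPM against 74.5, 59.4, 94.5 and 92.8 CPM (-2.90 ± 0.18), Esam had 1.85, 2.19, 4.33 and 2.28 CPM against 45.9, 24.6, 49.9 and 59.3 CPM (-4.07 ± 0.30), and the receptor gene Tek had 5, 4, 5.27 and 1.71 CPM against 28, 17, 21.7 and 18.6 CPM (-2.44 ± 0.27). None of these groups overlapped. Procr (-0.96), Hlf (-0.54), Txnip (-0.88) and Fgd5 (-2.54) also fell. Beside them, markers of endothelium and stroma summed to 130 to 161 CPM in the double mutants and 202 to 235 CPM in the wild type, and 2 of 7 of them were lower, Pecam1 (-0.69) and Emcn (-0.52). The part of such cells in the result was not tested.

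Of 15 megakaryocyte genes, 6 were higher, where 10.2% of all genes were, and 2 were lower, near the 12.2% of all genes. Pf4, the platelet chemokine, had 90.9, 288, 172 and 250 CPM against 12.4, 6.75, 11.1 and 9.76 CPM (4.32 ± 0.44), with no overlap in spite of the wide range in the double mutants. Treml1, of the platelet granule, had 14, 17.7, 12.2 and 16.6 CPM against 2.47, 1.79, 1.64 and 1.46 CPM (3.03 ± 0.25). Clec1b, another platelet gene, had 74 counts in the double mutants and 2 in the wild type. It may have passed the filter only through groups where it is higher. A count that holds such a gene describes the list and no more. With NHD13 alone Pf4 averaged 538 CPM, and 7 of the 15 genes were lower in the double mutant than with NHD13 alone, where 3.58% of all genes were.

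Of 18 erythroid genes, 6 were higher and 3 lower, where 10.2% and 12.2% of all genes were. Car1, an early red-cell carbonic anhydrase, had 63.2, 29, 33 and 40.9 CPM against 1.81, 1.02, 2.89 and 4.95 CPM (4.0 ± 0.66), and the erythroid factor gene Gata1 had 42.1, 40.4, 24.7 and 33.8 CPM against 13.9, 8.9, 12.6 and 9.13 CPM (1.65). Klf1 (1.57) was also higher. Car2, the most abundant of the list, was much lower, at 1200, 1050, 1110 and 1120 CPM against 4000, 4490, 4660 and 4050 CPM (-1.94 ± 0.11), and Hemgn fell as well (-1.09). Through Car2 the summed list went from 4310 to 5030 CPM in the wild type down to 1530 to 1620 CPM in the double mutants. Markers of mast cells, basophils and eosinophils moved unevenly beside these lineages: Cma1, a mast cell chymase, had 56.4, 121, 31.9 and 23.7 CPM against 0.504, 9.51, 4.22 and 3.97 CPM (3.67 ± 0.75, and 3.03 without double-mutant library 2 or 4.34 without wild-type library 2) and averaged 548 CPM with NHD13 alone. Ms4a2 (2.38) and Cpa3 (1.58) were higher. Epx (-3.56) and Prg3 (-2.63) of eosinophils were lower, calls lost in 6 and 4 of the 8 fits without 1 library (adjusted p up to 0.137 and 0.154, both without wild-type library 3). Their part in the result was not tested.

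Of 32 granulocyte and monocyte genes, 8 were lower and 4 higher, where 12.2% and 10.2% of all genes were. The count higher was near that share. The growth factor receptor genes Csf3r and Csf1r fell: Csf3r had 37.3, 23.6, 29.8 and 26.7 CPM against 134, 107, 101 and 87.2 CPM (-1.88 ± 0.18), and Csf1r had 9.82, 7.57, 8.19 and 8.2 CPM against 25.2, 32.3, 25.9 and 28.2 CPM (-1.73 ± 0.18). Both were separated in all libraries. Cebpa, the factor that commits cells to this lineage, was low throughout, at 1.73, 1.51, 1.93 and 1.9 CPM against 2.06, 3.78, 3.23 and 8.72 CPM (-1.31 ± 0.33), and was not called without wild-type library 4 (-0.77, adjusted p = 0.0539). Il6ra (-1.42), Gfi1 (-1.07) and Lyz2 (-1.06) were lower. Ly86 (2.13) and Csf2rb (0.39) were higher, as was the protease gene Ctsg (1.4), which was not called without wild-type library 3 or double-mutant library 2 (adjusted p up to 0.0648). Markers of mature neutrophils gave no call among 4 tested by edgeR or DESeq2, with 1 lower at an unadjusted p under 0.05. They summed to 17.1 to 24 CPM in the double mutants and 12.1 to 109 CPM in the wild type.

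Lymphoid genes were lower in 9 of 26 and higher in none by edgeR (2 at an unadjusted p under 0.05, 1 by DESeq2). The shares of all genes were 12.2% lower and 10.2% higher. Dntt, the template-free polymerase of lymphoid progenitors, had 275, 199, 143 and 147 CPM against 928, 561, 771 and 823 CPM (-2.01 ± 0.20). Gata3 had 3.21, 4.34, 5.08 and 6.34 CPM against 23.7, 16.8, 22.1 and 25.7 CPM (-2.20 ± 0.25), and Ccr9, the homing receptor of thymus-seeding cells, had 6.48, 8.73, 7.48 and 9.15 CPM against 66.2, 82.6, 58.6 and 55.3 CPM (-3.04 ± 0.33). In all of these genes the groups were apart. Il7r (-1.11) and Satb1 (-0.64) were lower. Notch1 was lower too (-0.45), but not without wild-type library 2 or 4 or double-mutant library 2 (adjusted p up to 0.0718). Markers of T and NK cells moved with them, 4 of 6 lower and 1 higher, and summed to 86.6 to 110 CPM against 238 to 321 CPM. Trbc2 had 0.864, 0.473, 1.04 and 0.835 CPM against 24.4, 30.3, 27 and 26.4 CPM (-5.07 ± 0.34), and the cytotoxic granule gene Nkg7 had 73.9, 45.4, 39.4 and 36.1 CPM against 246, 142, 162 and 213 CPM (-1.98 ± 0.25), while Trac, at 0.679, 1.33, 1.37 and 1.9 CPM against 0.0504, 0.205, 0.0431 and 0.0697 CPM, was higher (3.78 ± 0.54, and 4.51 without wild-type library 2). Of the B and plasma cell markers 1 of 5 was called, Jchain, at 15.9, 12.9, 10.8 and 17.6 CPM against 0.302, 0.102, 0.129 and 0.139 CPM (6.35 ± 1.83), a call that was lost without wild-type library 3 (adjusted p = 0.0525). The part of these cells in the result was not tested.

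Genes of the fetal program of blood progenitors were higher in 7 of 8 tested, where 10.2% of all genes were. None was lower by edgeR, at an unadjusted p under 0.05 or by DESeq2. Lin28b, the RNA-binding protein gene that blocks let-7 maturation and marks fetal progenitors, had 56.2, 60.1, 58.3 and 50 CPM against 3.27, 3.12, 2.76 and 3.35 CPM (4.17 ± 0.17, adjusted p = 5.68e-17). It averaged 2.90 CPM with Flt3-ITD alone and 61.9 CPM with NHD13 alone. Hmga2, a chromatin protein gene and let-7 target, had 195, 248, 286 and 235 CPM against 82.7, 121, 87.9 and 97.1 CPM (1.31 ± 0.14), and the messenger RNA-binding protein gene Igf2bp3 had 85.4, 114, 108 and 117 CPM against 40.6, 68.7, 66.4 and 63.5 CPM (0.83 ± 0.19). Groups were apart in these as well. Arid3a (1.28) and Hmga1 (0.49) were higher, and so were 2 imprinted genes at low levels, H19 (1.36, 2.06, 3.58 and 3.76 CPM against 0.352, 0.562, 0.172 and 0.279 CPM) and Igf2 (1.98, overlapping groups). H19 was at most 0.562 CPM in the wild type and may have passed the filter only through groups where it is higher. The 7 of 8 therefore describes these genes and no more. Hmga1 was not called without double-mutant library 4 (adjusted p = 0.0535), and Igf2 was not called in 5 of the 8 fits without 1 library (adjusted p up to 0.152, without double-mutant library 3). Summed, the list stood at 556 to 738 CPM against 247 to 399 CPM.

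Of 13 tested imprinted genes, 3 were higher and 4 lower, where 10.2% and 12.2% of all genes were. Igf2r, the scavenger receptor for IGF2, had 94.2, 86.3, 84.8 and 83.5 CPM against 32.6, 31.2, 29.8 and 27.3 CPM (1.53). Grb10, an adaptor that restrains insulin and IGF1 signalling, had 7.35, 6.92, 7.25 and 7.94 CPM against 35.3, 40.6, 41.7 and 36.7 CPM (-2.39 ± 0.22), and Ndn had 1.23, 3.48, 1.93 and 1.97 CPM against 19.6, 25.7, 23.4 and 22.4 CPM (-3.38 ± 0.28). All 3 genes were separated in every library. Sgce was also lower (-1.4), and Peg3 (-2.08, adjusted p = 0.0470) was not called in 7 of the 8 fits without 1 library.

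Receptors for cytokines and chemokines were lower in 13 of 26 and higher in 2, where 12.2% and 10.2% of all genes were. Il1r1, the receptor for interleukin-1, had 8.15, 11.5, 10.6 and 10 CPM against 37.5, 65.6, 74.4 and 78 CPM (-2.66 ± 0.20), and S1pr1 (-1.09) and Acvr1 (-1.15) also fell. Regulators of NF-kappaB were lower in 5 of 9, with none higher by edgeR, at an unadjusted p under 0.05 or by DESeq2: Bcl3 (-1.72), Tnfaip3 (-1.03), Relb (-0.86), Nfkbia (-0.74) and Nfkbie (-0.51). Of them Relb was not called in 5 of the 8 fits without 1 library (adjusted p up to 0.204, without wild-type library 3), and Tnfaip3 was not called without double-mutant library 1 or 2 or wild-type library 3 (adjusted p up to 0.0675). The chemokine gene Ccl4 fell (-1.84) and Ccl9 rose (1.05). Il1b had 34 counts against 0, at least 10-fold higher.

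For the lists in this paragraph, the shares of all genes are 10.2% higher and 12.2% lower. Among 18 p53 targets, 4 were higher and 4 lower. The death receptor gene Fas had 3.21, 2.32, 3.39 and 2.7 CPM against 0.705, 0.153, 0.258 and 0.558 CPM (2.81 ± 0.59), and Pmaip1, which encodes the BH3 protein NOXA, had 7.72, 7.23, 8.05 and 5.09 CPM against 0.755, 1.64, 0.775 and 1.32 CPM (2.65 ± 0.38). Cdkn1a (1.03) and Bax (0.30) were higher and Phlda3 (-1.17) and Zmat3 (-1.07) lower. Of 12 BCL2 family genes 4 were higher and 1 lower, Bcl2 itself, at 13.2, 15.5, 11.3 and 12.5 CPM against 25.8, 32.2, 29.6 and 39.7 CPM (-1.27). Of 35 cell-cycle genes, 7 were lower and 1 higher, and 27 were not called. Among those lower, Birc5 (-0.24) and Ccnb2 (-0.22) each lost the call in 6 of the 8 fits without 1 library. Tyms (-0.31) lost it in 5 and Top2a (-0.31) in 1. Mki67 had 123, 139, 166 and 165 CPM against 135, 257, 260 and 248 CPM (-0.60 ± 0.14) and overlapped through wild-type library 1. Of 19 transcription and chromatin factors linked to acute myeloid leukemia, 2 were higher, near the share of all genes, and 5 were lower. Among those lower was Mn1 at 204, 293, 337 and 370 CPM against 443, 577, 648 and 594 CPM (-0.91 ± 0.17).

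**Figure D3:**
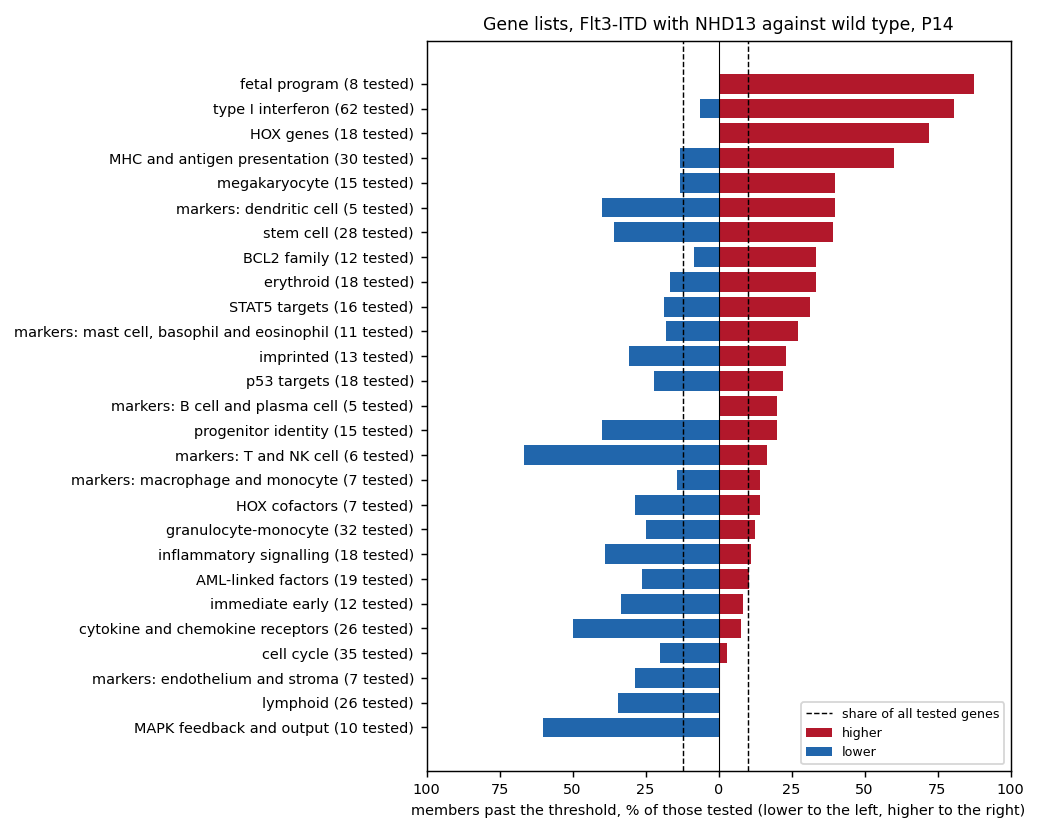
Gene lists with at least 5 tested members in the double mutant against wild type at P14. Bars give the percent of each list's tested members that were higher (right) or lower (left), and dashed lines give the shares of all tested genes, 10.2% and 12.2%. The fetal program (7 of 8), type I interferon (50 of 62) and HOX (13 of 18) bars reach furthest to the right. Several HOX genes passed the filter only through libraries carrying NHD13, so that bar is not to be read against the dashed line. H19 of the fetal program may also have passed only through groups where it is higher. The lists were chosen with earlier results of these data known, so the bars describe their members and no more. The bars of T and NK cells (4 of 6) and MAPK reporters (6 of 10) reach furthest to the left.

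The largest changes among genes of at least moderate level (mean log2 CPM of 2 or more) with no overlap between the groups were led by Igf1, a growth factor gene at chr10:87858265-87937042. Igf1 had 267, 347, 405 and 368 CPM in the double mutants and 6.55, 5.16, 4.74 and 6.28 CPM in the wild type (5.94 ± 0.19, adjusted p = 2.36e-18). It averaged 12.1 CPM with Flt3-ITD alone and 192 CPM with NHD13 alone, and the double mutants were above both (4.83 and 0.85). Klhl4, a kelch-repeat gene on the X chromosome, had 212, 197, 172 and 158 CPM against 9.72, 7.31, 9.65 and 5.37 CPM (4.51 ± 0.34). The other 10 highest are Pbx3, Pf4, Lin28b, Socs2, Car1, H2-Q6, Cma1, Phf11d, Phf11c and H2-Q7. Phf11c had 77.7, 64.8, 50.1 and 66.4 CPM against 7.6, 4.65, 4.39 and 5.65 CPM (3.54 ± 0.26), and Phf11d rose by 3.56, or by 4.34 without wild-type library 1.

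At the low end, Postn, which encodes the matrix protein periostin, had 2.47, 2.19, 2.07 and 2.13 CPM against 38.7, 59, 55.3 and 32.9 CPM (-4.39 ± 0.32). Mmrn1, a multimerin of platelets and endothelium, had 8.4, 13, 4.52 and 4.78 CPM against 176, 119, 144 and 99 CPM (-4.13 ± 0.26). Esam followed, then B4galt6, a glycosyltransferase gene (-3.96 ± 0.23), Pcp4l1 (-3.65), Ndn, Emp1 (-3.37), Tlr12 (-3.35), P2ry13 (-3.19), Rgs1 (-3.13), Ccr9 and Il1rl2 (-3.02). In Mmrn1 the double mutants fell although Pf4 and Treml1, other platelet genes, rose. All 24 of the highest and lowest genes kept their call in every alternative other than the test against a 1.5-fold change, with single libraries left out included.

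**Figure D4:**
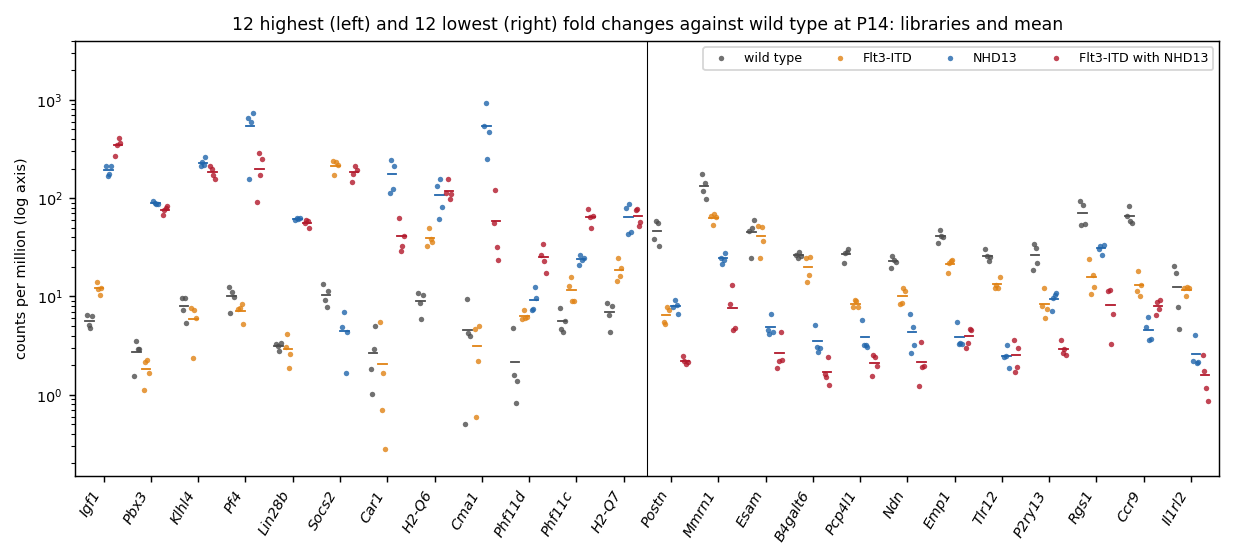
The 12 highest and 12 lowest genes against wild type at P14. Points are libraries of wild type, Flt3-ITD, NHD13 and the double mutant in CPM on a log axis, and lines are group means. Igf1 runs from 4.74 CPM in the lowest wild-type library to 405 CPM in the highest double mutant, and Socs2 is high where the label has Flt3-ITD.

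The double mutant was also set against each single genotype at P14. These comparisons share the double-mutant libraries with each other and with the comparison against wild type, so their values are given side by side and not counted against each other. Against Flt3-ITD alone 914 genes (6.35%) were higher and 1034 (7.18%) lower. Against NHD13 alone 382 (2.65%) were higher and 516 (3.58%) lower, and without NHD13 library 4 the first of these fell to 245. Of the 18 tested HOX genes, several passed the filter only through libraries that carry NHD13, so their count describes them and no more. Of these 18, 15 were higher and none lower than with Flt3-ITD alone by edgeR and by DESeq2 (2 lower at an unadjusted p under 0.05). Against NHD13 alone none was called by edgeR, at an unadjusted p under 0.05 or by DESeq2, with log2 fold changes from -1.22 to 0.72, a median of -0.131 and a lowest adjusted p of 0.319. Socs2 had the reverse pattern, -0.23 against Flt3-ITD alone (adjusted p = 0.563) and 5.37 against NHD13 alone. Of 10 MAPK reporters, 1 was lower than with Flt3-ITD alone, and 6 were lower and 1 higher than with NHD13 alone. The phosphatase gene Dusp5 was both the one lower (-0.65) and the one higher (0.71).

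Interferon-system genes differed from both single genotypes in part. Of the 38 antiviral effectors, 35 were higher than with Flt3-ITD alone, where 6.35% of all genes were. Against NHD13 alone, where 2.65% of all genes were higher, 7 were (30 at an unadjusted p under 0.05, 14 by DESeq2): Phf11d, Rsad2, Bst2, Eif2ak2, Cmpk2, Ifitm3 and Trim30a. Irf7 had 280, 389, 141 and 150 CPM with Flt3-ITD alone and 388, 519, 586 and 501 CPM with NHD13 alone, all below the 797 to 993 CPM of the double mutants, but the difference from NHD13 alone did not pass (0.84, adjusted p = 0.241). Ifitm3 had 1240, 1200, 1110 and 1180 CPM in the double mutants and averaged 990 CPM with Flt3-ITD alone, against which it did not pass (0.25), while it was higher than with NHD13 alone (1.08). Of the 30 genes of antigen presentation, 12 were higher and 6 lower than with Flt3-ITD alone, and 2 were higher than with NHD13 alone.

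Of 14394 genes tested, 80 were higher and 124 lower than in wild type and in both single genotypes. Those furthest from both single genotypes, among genes of at least moderate level, are named here. They were chosen by these same values. Fbln1, an extracellular matrix gene, had 20.4, 19.2, 18.6 and 22.9 CPM in the double mutants and 2.06, 4.04, 2.11 and 5.44 CPM in the wild type, with 5.2 CPM on average with Flt3-ITD alone and 8.26 CPM with NHD13 alone (2.60, 1.95 and 1.29 against wild type, Flt3-ITD and NHD13). Pnp2, a purine nucleoside phosphorylase gene, had 27.7, 32.9, 40.8 and 33.9 CPM against 12.7, 11, 12.2 and 9.62 CPM in the wild type (1.57, 1.10 and 1.25). Phf11d, Phf11c, Fdx1 (1.41, 1.23 and 1.43), Rsad2, Cmpk2 (2.22, 1.67 and 1.02) and Sdc3 (2.10, 0.89 and 1.05) complete the 8 highest. Among the 8 lowest, Cavin1, a coat protein gene of caveolae, had 16.4, 21.2, 18.5 and 21.6 CPM against 97.6, 52.7, 77.9 and 65.8 CPM in the wild type (-1.92, -1.92 and -1.69), and the single genotypes averaged 73.8 and 62.7 CPM, within the wild-type range. Tek (-2.44, -1.78 and -2.23), Cd163 (-2.61, -2.45 and -1.33), P2ry13 (-3.19, -1.53 and -1.71), Grb10 (-2.39, -1.33 and -1.72), Cttn (-2.14, -1.42 and -1.24), Mmrn1 (-4.13, -3.05 and -1.67) and Postn (-4.39, -1.54 and -1.85) are the others.

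At P0 the same genotypes were compared in libraries that share none with P14. Of 14359 genes tested there, 159 (1.11%) were higher and 140 (0.975%) lower. The spread between libraries was wider, with a biological coefficient of variation of 0.301 against 0.164 at P14. DESeq2 called 614 genes in place of 299, and without wild-type P0 library 4 edgeR called 188, 100 of them higher and 88 lower. Without wild-type P0 library 1 it called 198, of which 101 were higher. Of the 155 genes higher at P0 that were also tested at P14, 125 (80.6%) were higher at P14, which is 8.93% of the 1400 higher at P14 and tested at P0. Of 131 genes lower at P0, 102 (77.9%) were lower at P14, or 5.91% of 1725. In 2 genes higher and 4 genes lower at P14 the call at P0 was opposite.

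HOX genes were raised at both ages. At P0, 11 of 16 tested were higher and none lower by edgeR, at an unadjusted p under 0.05 or by DESeq2. Several of the 16, such as Hoxc5 and Hoxc8, were near 0 CPM in the P0 wild type. A count over the 16 therefore describes them and no more, and 1.11% of all genes tested at P0 were higher. Hoxa9 had 114, 93, 119 and 119 CPM in the P0 double mutants and 68.2, 62.2, 65.3 and 57.2 CPM in the P0 wild type. Pbx3 had 53.8, 65.1, 72.5 and 65.9 CPM against 2.12, 3.8, 2.19 and 2.76 CPM, and Igf1 had 481, 190, 409 and 406 CPM against 8.13, 14.4, 8.48 and 8.58 CPM. In these genes the P0 groups did not overlap. The test of the difference between the ages called 205 of 14984 genes (1.37%) as moved upward and 381 (2.54%) as moved downward from P0 to P14. Without wild-type P14 library 3 the first count was 135, and without double-mutant P0 library 3 it was 388. None of the 18 HOX genes was among them by edgeR, at an unadjusted p under 0.05 or by DESeq2. The P0 and P14 counts come from separate tables, so age and table cannot be told apart.

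Interferon-system genes differed between the ages. At P0 none of 62 was called in either direction by edgeR (19 higher and 1 lower at an unadjusted p under 0.05, 4 and 1 by DESeq2), with a median of 0.408 against an all-gene median of 0.0154. Irf7 at P0 had 539, 829, 727 and 235 CPM in the double mutants and 387, 560, 139 and 268 CPM in the wild type. Isg15 had 141, 194, 164 and 73.4 CPM against 77.8, 108, 42.6 and 58.1 CPM, and Rsad2 had 97.5, 137, 147 and 104 CPM against 63.8, 116, 52.1 and 40.3 CPM. The groups overlapped in each. The highest wild-type library at P0 was above the highest at P14 for all 3 genes, in tables that were normalised separately. The difference between the ages was called upward in 17 of the 62, where 1.37% of all genes were. It was downward in none by edgeR, at an unadjusted p under 0.05 or by DESeq2. Of the 17, 12 are antiviral effectors, such as Phf11d (3.28) and Cmpk2 (1.41). H2-Q7 (3.34) and H2-Q6 (3.06) also differed between the ages.

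Lin28b was raised at both ages but from different wild-type levels. At P0 it had 54.6, 40.1, 68.6 and 63.9 CPM in the double mutants and 19.4, 17.8, 12 and 22.3 CPM in the wild type (1.67), while at P14, in the other table, the double mutants were at 50 to 60.1 CPM and the wild type was at 2.76 to 3.35 CPM. The difference between the ages was 2.52 (adjusted p = 2.14e-07), and for Hmga2 it was 1.12. Socs2 varied widely in the P0 double mutants, at 72.7, 7.42, 102 and 12.3 CPM against 19.9, 14.2, 20.3 and 14.8 CPM, and did not pass there (1.5, adjusted p = 0.388; difference between the ages 2.66). Dusp6 at P0 had 98, 268, 188 and 210 CPM against 174, 361, 206 and 172 CPM, and no MAPK reporter of 9 was called at P0 by edgeR (2 lower at an unadjusted p under 0.05, 1 by DESeq2).

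Some genes were lower at P14 and did not pass at P0, with the difference between the ages itself called. Ndn had 35, 33.3, 20.8 and 31.5 CPM in the P0 double mutants and 28, 27.3, 31.5 and 25.6 CPM in the P0 wild type (0.10, adjusted p = 0.912), and the difference between the ages was -3.46. Meis1 had 429, 409, 385 and 438 CPM against 476, 480, 405 and 386 CPM at P0, with a difference between the ages of -0.90. Of 28 stem cell genes, 10 moved downward between the ages and 1 upward, where 2.54% and 1.37% of all genes did. Postn (-3.56), Pcp4l1 (-3.07), Ccl4 (-2.92), Tlr12 (-2.81) and Esam (-2.71) had the other lowest differences among the genes of at least moderate level, and of these Esam was also lower at P0 (-1.32, adjusted p = 0.0267). Rab44, of the Rab GTPase family, was called in opposite directions: at P14 it had 9.82, 11.7, 11.8 and 11.8 CPM against 2.92, 3.22, 2.76 and 4.32 CPM, and at P0 2.65, 2.49, 5.28 and 3.81 CPM against 6.08, 6.46, 9.14 and 9.25 CPM (1.79 and -1.11, adjusted p = 7.4e-06 and 0.0418). Ms4a4c was higher at P14 (2.50) and did not pass at P0 (-0.84), with a difference between the ages of 3.35.

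**Figure D5:**
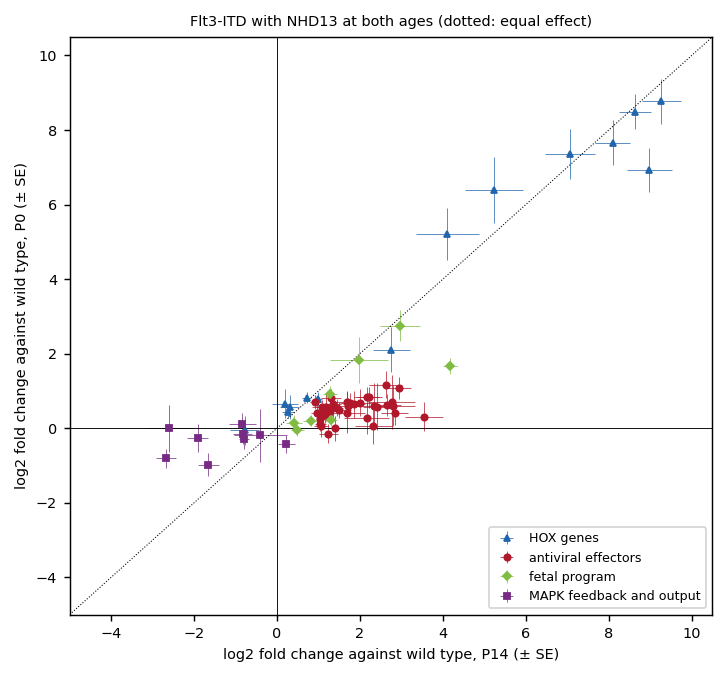
The double mutant against wild type at P14 (x axis) and P0 (y axis). Points are log2 fold changes with bars of 1 SE for HOX genes, antiviral effectors, fetal program genes and MAPK reporters tested at both ages, and the dotted line marks equal values; Hoxb8 and Hoxc8 are left out because the wild type had 0 counts at P14. HOX genes lie along the dotted line, and the antiviral effectors lie below it.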

How the data were processed

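The authors deposited raw counts per Ensembl gene, in 1 table for P14 and 1 for P0; the submitters' processing notes name STAR and featureCounts 1.4.5. Genome build, annotation and use of strand are not given in the sources used here, so reads of overlapping or antisense genes cannot be told apart. Symbols and coordinates come from GENCODE M21 (GRCm38), which gave a symbol for 40340 of 41388 gene IDs at P14 and of 40548 at P0. At P0, 276 repeated rows were dropped and 4 columns that match no sample were not used; NHD13 alone at P0 is not analysed here.

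Counts were fitted with edgeR 4.0.16 in R 4.3.3 (TMM, filterByExpr, robust quasi-likelihood): 24 P14 libraries in 6 groups (18 residual degrees of freedom, 14394 genes holding 99.9% of counts), 12 P0 libraries, and both together for the difference between the ages. The adjusted p threshold was 0.05, and SE is the size of the log2 fold change over the root of the quasi-likelihood F. Bounds use a floor of 3 counts over the group. The filter asks for counts in as many libraries as a group holds, so a gene silent in wild type can pass through other groups. In counts simulated on the P14 libraries, 67.2% of genes changed by 1.5-fold and 97% of genes changed by 2-fold were called, on 14172 genes. At P0 these shares were 19.4% and 52.2%, with 14090 genes tested. Genes of lower level were not changed, so the shares do not cover them. Far fewer genes were changed than were called at P14. Adjusted p-values depend on how many genes change, so the P14 shares hold for the simulated setting only.

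Alternatives were DESeq2 1.42.0, other scaling, other filters, a test against a 1.5-fold change, fewer libraries, a replicate block and a term for Y-linked against Xist counts. The members and lists were chosen with earlier results of these data known. Genes are named where they are the targeted genes, the 12 highest and 12 lowest changes, at most 6 per list, the 8 highest and 8 lowest that differed from all 3 other P14 genotypes used, and the 6 highest and 6 lowest differences between the ages. Further list members are named to show roles and were chosen after their values were seen. A few list members are not reported here by name.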

Additional observations from a re-analysis of the deposited data

Results flagged for a closer look

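The difference of the effect between P14 and P0 was called, by edgeR's interaction test, for 25 of the 41 genes singled out by size and tested at both ages, where 1.37% of all genes tested were called upward and 2.54% downward. These genes were chosen by the size of their P14 change or of this difference, so nothing is read from their count. On the log2 scale it was positive for Ms4a4c (3.354), H2-Q7 (3.342), Phf11d (3.283), H2-Q6 (3.062), Phf11c (2.966), Rab44 (2.899), Socs2 (2.659), Lin28b (2.524), Fbln1 (1.782), Pnp2 (1.595), Cmpk2 (1.408) and Sdc3 (1.347). It was negative for Postn (-3.559), Ndn (-3.456), Pcp4l1 (-3.066), Ccl4 (-2.92), Tlr12 (-2.814), Esam (-2.705), B4galt6 (-2.592), Rgs1 (-2.436), Mmrn1 (-2.144), Emp1 (-1.623), Ccr9 (-1.515), Tek (-1.511) and Grb10 (-1.269). Rab44 was called in opposite directions at the 2 ages. The genes Ms4a4c, Rab44 and Ccl4 were singled out by this difference alone. Age and table cannot be told apart here.

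A library lay far from the other 3 of its group in 8 of 148 groups of 4 (5.41%), where chance gives about 1 in 20, by the gap to the nearest library as a share of the range. It was 1.0 for Hoxd13 in the wild type, where a single library had its 1 count, and 0.914 for Rab44 in the double mutants, where library 1 was the lowest. Among summed lists it was 0.954 for STAT5 targets and 0.836 for dendritic cell markers in the double mutants. In the wild type it was 0.923 for mast cell, basophil and eosinophil markers, 0.916 for cytokine and chemokine receptors, 0.884 for factors linked to acute myeloid leukemia and 0.853 for the HOX B cluster.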

How the results depend on the processing

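Of 321 recomputed counts, 301 stayed within 1.5 times the reported ones. Against a 1.5-fold change 975 genes were called at P14 (420 higher, 555 lower), with 6 antigen presentation genes and 4 fetal program genes higher. Requiring 10 CPM in 4 libraries left 6 HOX genes higher at P14, and 147 genes at P0 (70 higher, 77 lower). DESeq2 called 614 genes at P0 (293 higher, 321 lower). At P0 more genes were thus lower than higher under this filter and under DESeq2, and also without double-mutant P0 library 2 (153 higher, 162 lower), against 159 higher and 140 lower as reported. The cause of the other moves was not tested; these filters and thresholds test fewer genes or larger changes by construction.

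With 1 library left out, the P14 comparison with wild type ranged from 2530 to 3491 genes (1152 to 1621 higher, 1378 to 1870 lower), HOX genes higher stayed at 13, interferon-system genes higher ranged from 48 to 51, antiviral effectors stayed at 38, antigen presentation genes from 13 to 19, fetal program genes from 5 to 8 and MAPK reporters lower from 5 to 7. Against Flt3-ITD alone the range was 1594 to 1927 (747 to 956 higher, 825 to 971 lower) and against NHD13 alone 624 to 880 (245 to 379 higher, 379 to 501 lower). At P0 it was 188 to 315 (100 to 169 higher, 88 to 162 lower), and for the difference between the ages 399 to 858 (135 to 388 higher, 264 to 490 lower). Counts that moved by more than 1.5 times were those higher than NHD13 alone, 245 without NHD13 library 4; those at P0, 188 without wild-type P0 library 4 and 198 without library 1; and those with a higher difference between the ages, 135 without wild-type P14 library 3 and 388 without double-mutant P0 library 3. Of 269 genes reported past the threshold, 48 lost the call when some library was left out and none reversed; 216 kept it in every alternative other than the 1.5-fold test.

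Leaving out both first libraries together, chosen after seeing that each stood furthest from its group, gave 2965 genes, and fitting only the 8 libraries gave 2396. Same-numbered libraries of the 2 groups correlated by 0.373, -0.0894, 0.0227 and 0.16 in their deviations from the group means. The first libraries correlated most, but not every pair exceeded 0.1, so the numbers were not taken to pair the samples. With a replicate block 3204 genes were called against wild type at P14 (1480 higher, 1724 lower), 1920 against Flt3-ITD alone, 876 against NHD13 alone and 363 at P0.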
